A study of Mus musculus with 27 samples.

Results

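Complement genes were followed across the colon of mice with and without the cytokine gene Il10. The members are 10 genes, C1qa, C1qb, C1qc, C2, C3, Cfb, Cfp, Serping1, C3ar1 and C5ar1, with all probe sets annotated to them. Of the 10, 9 were read, by 17 of the 34945 probe sets that carry 1 gene symbol, among 18193 genes in all. C3 had no such probe set in the annotation used and was not analysed here. The levels come from full-thickness colon hybridised to Affymetrix mouse arrays, 1 array per sample, 27 arrays in 9 groups of 3. The groups are Il10 knockouts in conventional housing (7CC, 9CC and 12CC), Il10 knockouts in specific pathogen free housing (7SPF, 9SPF and 12SPF) and conventionally housed wild types (7WT, 9WT and 12WT), where the leading number is the age in weeks. The meaning of CC was taken by elimination, as SPF and WT are the remaining codes. No SPF wild types were used here, so SPF knockouts against wild types change genotype and housing together. The authors chose the 3 samples of a group by colon length and damage, and the labels give neither the knockout allele nor whether animals were pooled.

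Complement is a set of plasma and tissue proteins that mark microbes and damaged cells and call in phagocytes. In the classical route, C1q binds its target and the protease C1r activates the protease C1s, which cleaves C4 and C2. In the alternative route, factor B and C3 form a convertase that properdin holds together. Both routes cleave C3 and then C5, whose small fragments act on the receptors C3aR1 and C5aR1. The liver makes most plasma complement, whereas C1q and properdin come largely from myeloid cells, and the gut makes part of its complement locally.

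Values are log2 expression as deposited, and each probe set is compared only with itself, since arrays do not put different probe sets on a common scale. Each gene is represented by its brightest probe set, differences are log2 differences of group means ± SE with n = 3 arrays a group, and adjusted p-values are from limma with Benjamini-Hochberg adjustment over all 18193 genes. A gene was called at an adjusted p under 0.05. In bulk tissue a change in the number of cells and a change in RNA per cell cannot be told apart. Array medians lay between 4.92 and 4.99, and correlations between arrays (Spearman) between 0.953 and 0.993. The Il10 probe set read 4.66 or more in all 18 knockout arrays, against 3.83 or less in the 9 wild-type arrays, opposite to a lost transcript. The position of that probe set relative to the deleted part is not given, so it checks nothing about the deletion. In 12WT replicate 2 the 3′ actin signal exceeded the 5′ signal by 0.946, against at most 0.716 in the other arrays. Without that array the counts of members called against 12WT were the same. Over all genes, the count in 12CC against 12WT was 11 without that array and 82 with it.

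The highest levels lay in 2 groups of knockouts, 9CC and 12SPF. These were the 2 highest groups in 8 of the 9 genes, the exception being C5ar1, whose brightest probe set was highest in 12CC. At 9 weeks 8 genes rose in conventional knockouts against wild types, where 14.2% of all genes rose. At 12 weeks the same 8 rose in SPF knockouts, where 18.2% of all genes rose. No gene of the set was lower in either comparison. In the ordered group means, 67 of 72 pairs of neighbouring groups overlapped in their arrays, so most steps between neighbours are within the spread.

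**Figure D1:**
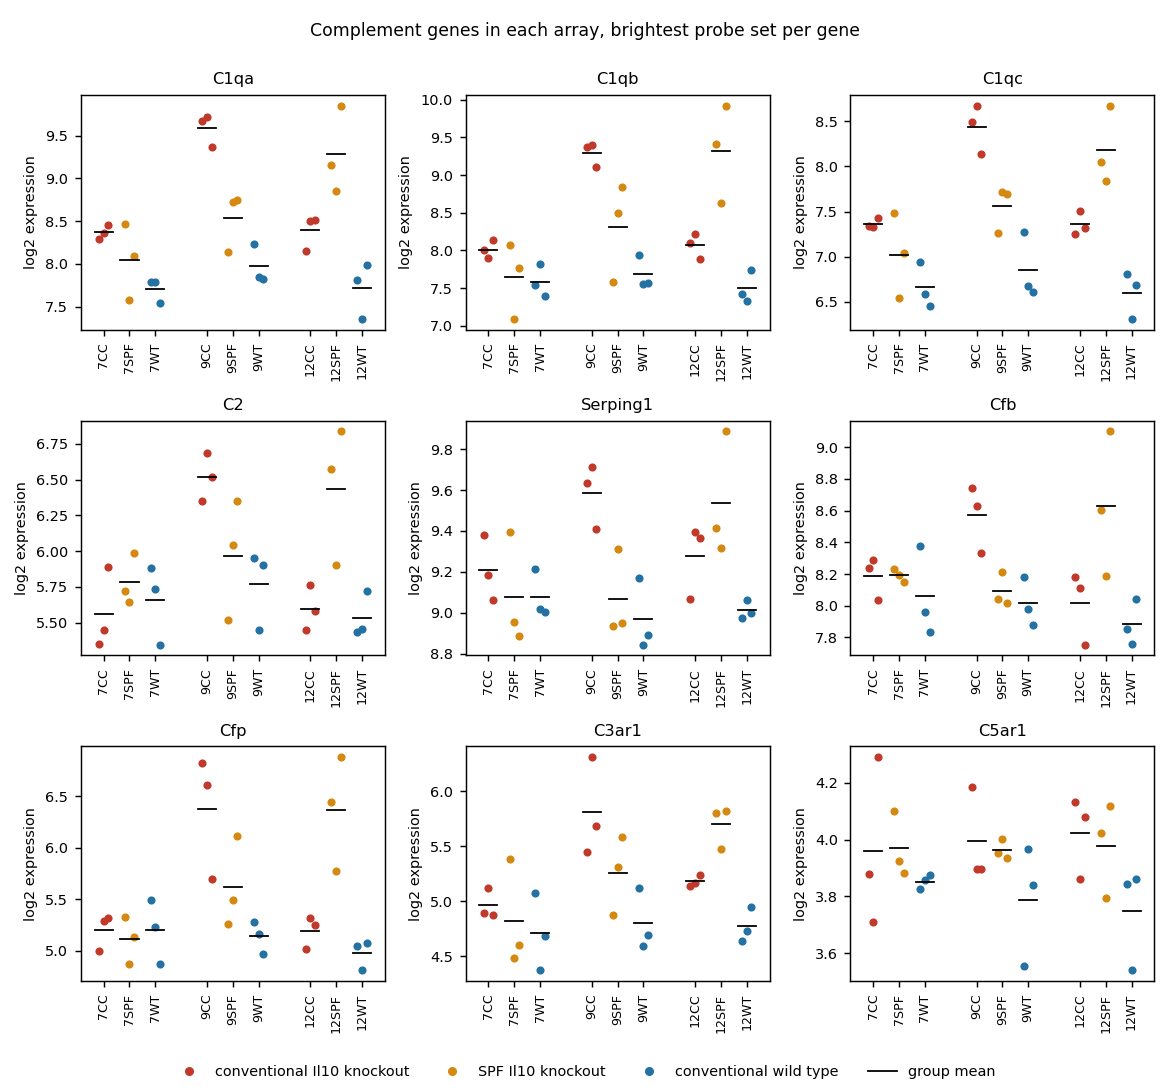
Log2 expression of the brightest probe set of each gene in every array (points), by group on the horizontal axis, with the group mean as a line. In C1qa the 3 9CC arrays sit between 9.36 and 9.72 and the 3 12SPF arrays between 8.85 and 9.85, while the wild types stay at 8.24 or below.

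On the brightest probe sets, the 3 chains of C1q, the recognition molecule of the classical route, were the members with the largest differences from wild types in 9CC and 12SPF. The 2 dimmer probe sets of C2 differed by more. C1qa, the A chain, read 9.68, 9.72 and 9.36 in 9CC arrays and 8.24, 7.85 and 7.82 in 9WT arrays. All 3 knockout arrays lay above all 3 wild-type arrays. The difference was 1.62 ± 0.23 (3.06-fold, adjusted p = 8.72e-05). In 12SPF arrays C1qa read 9.16, 8.85 and 9.85, against 7.82, 7.35 and 7.98 in 12WT arrays. Again the groups did not overlap, though the SPF arrays were spread over a full log2 unit, with replicate 3 highest and replicate 2 lowest. Here the difference was 1.57 ± 0.23 (2.97-fold, adjusted p = 7.03e-05).

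C1qb encodes the B chain. Its brightest probe set read 9.37, 9.40 and 9.11 in 9CC arrays and 7.94, 7.55 and 7.57 in 9WT arrays. In 12SPF arrays it read 9.41, 8.63 and 9.92, against 7.43, 7.33 and 7.74 in 12WT arrays. The knockouts lay wholly above the wild types at both ages. The differences were 1.61 ± 0.29 at 9 weeks (adjusted p = 0.000604) and 1.82 ± 0.29 at 12 weeks, or 3.54-fold (adjusted p = 0.000108). Of C1qb's 3 probe sets, all passed in both comparisons in a fit over probe sets.

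C1qc, the C chain, read 8.49, 8.67 and 8.14 in 9CC arrays, against 7.28, 6.67 and 6.61 in 9WT arrays. It read 8.05, 7.83 and 8.67 in 12SPF arrays, against 6.81, 6.31 and 6.68 in 12WT arrays. Neither pair of groups overlapped. C1qc rose by 1.58 ± 0.23 in 9CC (adjusted p = 0.000108) and by 1.58 ± 0.23 in 12SPF (adjusted p = 6.17e-05). C1q needs all 3 chains, and across the 27 arrays C1qa had a Pearson correlation of 0.963 with C1qb and of 0.986 with C1qc. After group means were taken out, these were 0.871 and 0.927. C1qb and C1qc correlated less, at 0.944, and at 0.79 after group means were taken out. All 3 genes share the arrays they were read on, so these are descriptions without a test.

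The C1q genes lie side by side on mouse chromosome 4, in the order C1qb, C1qc and C1qa with no other coding gene between them in RefSeq. The RefSeq promoter table (GRCm38.p6, 250 bases before to 50 after the start) held 5 of the 9 genes, among them C1qb and C1qc, whose promoters are shown because these neighbours moved together. The C1qb promoter is chr4:136886151-136886450 and the C1qc promoter is chr4:136892865-136893164, both on the minus strand and written 5′ to 3′. Capitals mark the 1 motif match found.

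C1qb: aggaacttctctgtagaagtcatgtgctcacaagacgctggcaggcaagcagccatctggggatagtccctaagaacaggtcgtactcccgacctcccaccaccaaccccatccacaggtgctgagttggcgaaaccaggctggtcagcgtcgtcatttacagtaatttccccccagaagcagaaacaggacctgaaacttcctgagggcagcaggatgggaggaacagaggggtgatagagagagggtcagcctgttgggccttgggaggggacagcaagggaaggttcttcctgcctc

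C1qc: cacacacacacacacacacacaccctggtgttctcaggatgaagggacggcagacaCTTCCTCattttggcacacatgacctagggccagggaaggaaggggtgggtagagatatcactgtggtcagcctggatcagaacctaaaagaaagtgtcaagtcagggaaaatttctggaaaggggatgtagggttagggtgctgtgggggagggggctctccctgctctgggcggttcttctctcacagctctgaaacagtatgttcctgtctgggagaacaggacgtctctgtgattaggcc

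Both strands of the 5 promoters were searched for the gamma-activated site TTCNNNGAA, the interferon-stimulated response element (GAAA, any 2 bases, GAAA), the kappa B site (GGGA, any base, TT, any base, CC) and the PU.1 motif GAGGAAG. These are held by 8.30%, 3.44%, 1.20% and 13.6% of 32851 promoters of the same length. A single match was found, the reverse complement of the PU.1 motif 194 bases before the start of C1qc. PU.1 is a transcription factor of myeloid cells. A match is a description of letters and not a binding site, and windows without a match say nothing about a factor. The PU.1 motif was added after the others had been chosen.

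Downstream of C1q, C2 supplies the protease part of the classical convertase. Its brightest probe set read 6.35, 6.69 and 6.52 in 9CC arrays and 5.95, 5.45 and 5.90 in 9WT arrays, with no overlap. In 12SPF arrays it read 6.57, 5.90 and 6.84, against 5.43, 5.45 and 5.72 in 12WT arrays, again without overlap. The differences were 0.75 ± 0.22 (adjusted p = 0.0165) and 0.90 ± 0.22 (adjusted p = 0.0031). The 9-week call was lost without 9CC replicate 2 or without 9WT replicate 2.

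The other C2 probe sets moved further than the brightest. The second in brightness read 7.04, 6.69 and 6.19 in 9CC arrays and 4.53, 4.62 and 4.53 in 9WT arrays, a difference of 2.08. On the third and dimmest the 9CC arrays read 6.90, 7.25 and 6.20, and the 9WT arrays 4.27, 4.27 and 4.48, a difference of 2.44. Their adjusted p-values over all probe sets were 8.01e-05 and 1.29e-05. In 12SPF against 12WT they differed by 1.94 and 2.05, where the C1q chains differed by at most 1.82. In 9CC and 12SPF against wild types, the size of the C2 change thus differed between probe sets and its direction did not.

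Serping1 encodes C1 inhibitor, which shuts off C1r and C1s. It read 9.64, 9.71 and 9.41 in 9CC arrays, against 9.17, 8.84 and 8.89 in 9WT arrays. In 12SPF arrays it read 9.41, 9.32 and 9.89, against 8.98, 9.06 and 9.00 in 12WT arrays. Groups did not overlap at either age, and the differences were among the smaller ones, 0.62 ± 0.15 at 9 weeks (adjusted p = 0.00648) and 0.53 ± 0.15 at 12 weeks (adjusted p = 0.011). Without 12SPF replicate 3 the 12-week call was lost.

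In the alternative route, Cfb encodes factor B, the protease that pairs with C3b. Cfb read 8.75, 8.63 and 8.33 in 9CC arrays and 8.18, 7.98 and 7.88 in 9WT arrays. It read 8.61, 8.19 and 9.10 in 12SPF arrays and 7.85, 7.76 and 8.04 in 12WT arrays. Both knockout groups lay above their wild types, by 0.56 ± 0.18 (adjusted p = 0.0249) and 0.75 ± 0.18 (adjusted p = 0.0023). The 9-week call was lost when 9CC replicate 1 or 2, or 9WT replicate 2 or 3, was left out. Cfb and C2 are neighbours on chromosome 17.

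Cfp encodes properdin, which holds the alternative convertase together. Its brightest probe set read 6.82, 6.61 and 5.69 in 9CC arrays, against 5.28, 5.17 and 4.97 in 9WT arrays. It read 6.44, 5.78 and 6.88 in 12SPF arrays, against 5.04, 4.81 and 5.07 in 12WT arrays. Replicate 3 was well below the other 9CC arrays and replicate 2 below the other 12SPF arrays, yet both stayed above the wild types. Cfp was higher by 1.24 ± 0.27 at 9 weeks (adjusted p = 0.00232) and by 1.39 ± 0.27 at 12 weeks (adjusted p = 0.000467). A dimmer Cfp probe set did not follow, with differences of -0.17 at both ages (adjusted p = 0.433 and 0.391), and its correlation with the first over the arrays was -0.246.

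Of the receptors, C3ar1 encodes the receptor of the C3a fragment, carried by myeloid cells. C3ar1 read 5.45, 6.31 and 5.68 in 9CC arrays and 5.12, 4.59 and 4.70 in 9WT arrays. In 12SPF arrays it read 5.80, 5.48 and 5.82, against 4.64, 4.73 and 4.95 in 12WT arrays. The groups did not overlap, and the differences were 1.01 ± 0.23 (adjusted p = 0.00391) and 0.92 ± 0.23 (adjusted p = 0.00388). All 3 of its probe sets passed in both comparisons.

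C5ar1, the receptor of C5a on neutrophils and macrophages, was the member that did not pass on its brightest probe set. Its brightest probe set read 4.19, 3.90 and 3.90 in 9CC arrays and 3.55, 3.97 and 3.84 in 9WT arrays, which overlap. The differences were 0.21 ± 0.14 at 9 weeks (adjusted p = 0.298) and 0.23 ± 0.14 in 12SPF against 12WT (adjusted p = 0.208). Its dimmer probe set gave another picture. That probe set read 3.37, 3.89 and 3.70 in 9CC arrays and 3.05, 3.01 and 2.92 in 9WT arrays. It read 4.40, 3.42 and 4.03 in 12SPF arrays, against 2.96, 3.04 and 2.92 in 12WT arrays. Neither pair overlapped, and over all probe sets the differences were 0.66 ± 0.16 (adjusted p = 0.0061) and 0.97 ± 0.16 (adjusted p = 0.000176). With the probe sets of each gene averaged, C5ar1 passed too, at 0.43 in 9CC against 9WT (adjusted p = 0.00731) and 0.60 in 12SPF against 12WT (adjusted p = 0.00039), which made 9 of 9 members called. C5ar1 is therefore reported as uncertain, with its 2 probe sets correlated at only 0.261 over the arrays.

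**Figure D2:**
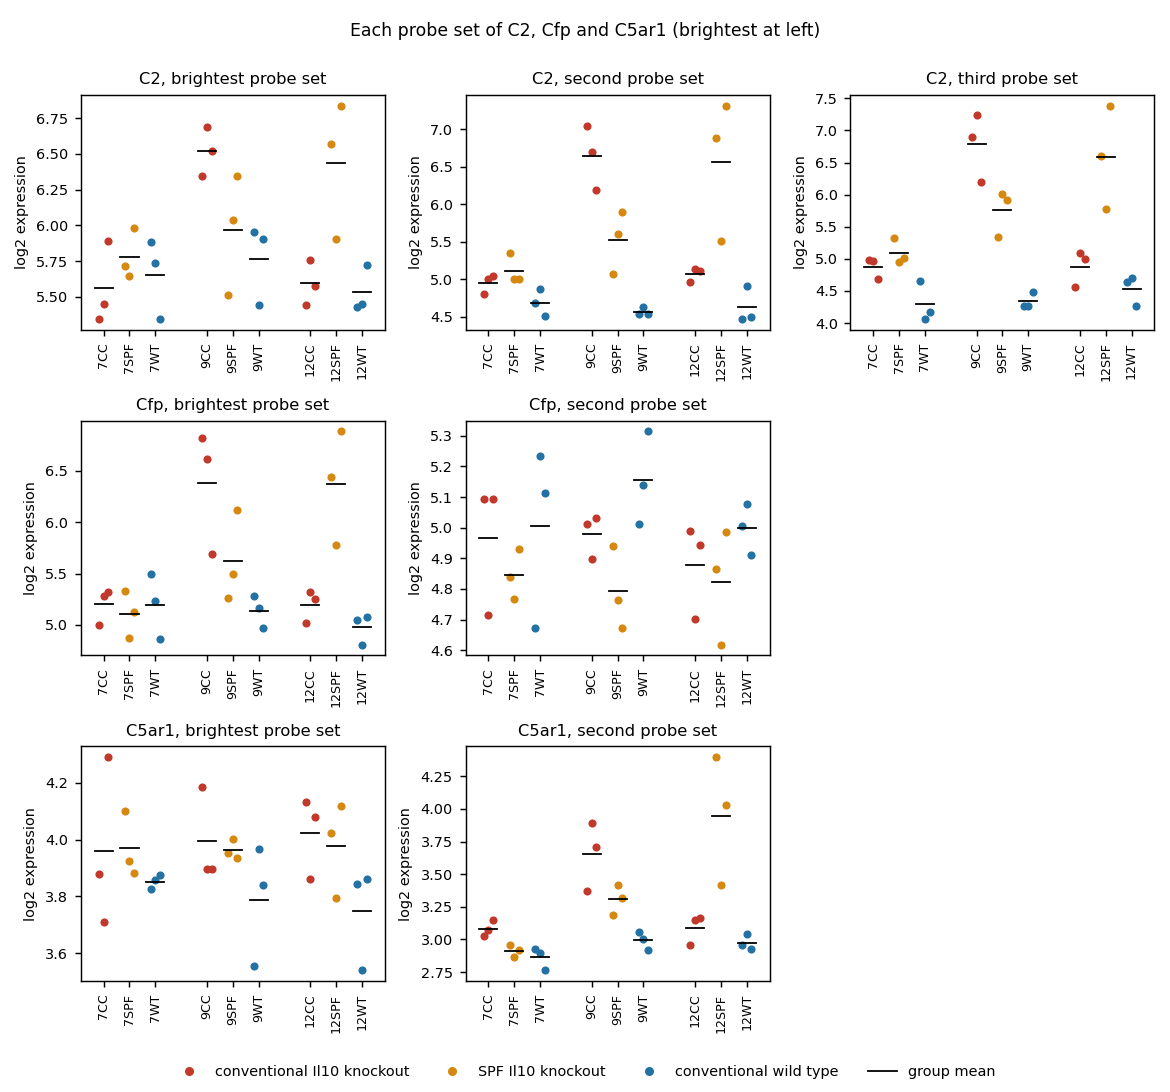
Log2 expression of every probe set of C2, Cfp and C5ar1 in each array (points) with group means (lines), the brightest at left. In 9CC and 12SPF against wild types of the same age, the C2 probe sets share a direction but differ in size. 1 Cfp probe set stays between 4.62 and 5.31 in all arrays, and the dimmer C5ar1 probe set separates 9CC and 12SPF from wild types.

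Counted over probe sets, 15 of 17 were higher in 9CC than in 9WT, where 9.48% of all 45037 probe sets were higher, and 15 of 17 in 12SPF than in 12WT, where 13.0% were. In 9SPF against 9WT 2 of 17 were higher, both of C2, where 4.78% were. The 2 that did not pass in 9CC and 12SPF were the second Cfp probe set and the brightest C5ar1 probe set.

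At the gene level, 8 of 9 members had all 3 9CC arrays above all 3 9WT arrays, as did 22.7% of all genes, and 8 of 9 had all 3 12SPF arrays above all 3 12WT arrays, as did 17.7%. The median difference of the 9 genes was 1.01 in 9CC against 9WT, where that of all genes was 0.000234, and 0.92 in 12SPF against 12WT, where it was 0.02. The 2 comparisons have no array in common.

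Markers of other cells moved in these arrays too. Of all genes, 14.2% rose in 9CC against 9WT and 18.2% in 12SPF against 12WT, while 9.86% and 16.6% fell. Of 10 measured macrophage markers, 8 rose in 9CC (median difference 1.04) and 6 rose in 12SPF (0.89), among them the receptor genes Csf1r (1.33 and 1.14) and Fcgr1 (2.16 and 2.25). The macrophage list averaged 7.62, 7.69 and 7.27 in 9CC arrays and 6.60, 6.22 and 6.24 in 9WT arrays, and 7.29, 6.94 and 7.86 in 12SPF arrays and 6.20, 6.38 and 6.43 in 12WT arrays. Of 9 neutrophil markers, 4 rose in 9CC and 7 in 12SPF, with list means of 6.81, 4.58 and 7.60 in the 12SPF arrays. Of 7 T cell markers 4 rose in each, with list means between 4.87 and 5.28 in 9CC arrays and between 4.07 and 4.18 in 9WT arrays, and between 4.33 and 5.50 in 12SPF arrays and between 4.04 and 4.16 in 12WT arrays. Smooth muscle markers fell, 6 of 8 in 9CC and 8 of 8 in 12SPF. In 12SPF, the replicate with the lowest macrophage and neutrophil list means, replicate 2, was also the lowest in all 8 called members. Replicate 3 was the highest in both lists and in all 8 members. The T cell list (4.80, 4.33 and 5.50) and the B cell list (5.38, 4.64 and 6.03) had the same order. Smooth muscle (10.43, 11.39 and 9.94) and epithelium (12.12, 12.42 and 11.61) lists had the reverse order. The order is thus not particular to macrophages and neutrophils. The part of these cells in the members' changes was not tested. Over the 27 arrays, correlations with the macrophage list mean ran from 0.835 for C2 to 0.972 for C1qa in 8 members and were 0.356 for C5ar1. After group means were taken out they ran from 0.669 for C3ar1 to 0.876 for C1qc, with C5ar1 at 0.102. With the neutrophil list mean the 8 correlated at between 0.702 (Serping1) and 0.924 (Cfp), C2 and Cfp at slightly more than with the macrophage list. These describe values read from the same RNA.

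At 7 weeks, the youngest age, no member passed in conventional knockouts against wild types, where 0.506% of all genes passed. C1qa read 8.30, 8.36 and 8.45 in 7CC arrays and 7.79, 7.78 and 7.54 in 7WT arrays. C1qb lay between 7.90 and 8.13 in 7CC arrays and between 7.39 and 7.82 in 7WT arrays. C1qc read 7.34, 7.33 and 7.42 in 7CC arrays and 6.94, 6.59 and 6.45 in 7WT arrays. For these 3 genes all 7CC arrays lay above all 7WT arrays, as they did for 10.4% of all genes. The differences were 0.67 ± 0.23 for C1qa (adjusted p = 0.261), 0.43 ± 0.29 for C1qb (adjusted p = 0.637) and 0.70 ± 0.23 for C1qc (adjusted p = 0.23). At an unadjusted p under 0.05, 2 of 9 members passed, as did 11.0% of all genes. On their brightest probe sets the other members differed by between -0.09 and 0.25. Hepatocyte markers averaged 6.73 and 6.05 in 7WT replicates 1 and 2 and between 4.14 and 5.30 in the other 25 arrays, and their part in these values was not tested.

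In 7SPF against 7WT no member passed, where 0.0550% of genes passed. On the brightest probe sets differences ran from -0.09 for Cfp to 0.36 for C1qc. The dimmest C2 probe set read 5.32, 4.95 and 5.02 in 7SPF arrays and 4.65, 4.06 and 4.17 in 7WT arrays. In 7CC arrays it read 4.98, 4.96 and 4.69. Neither knockout group overlapped the wild types on this probe set, though the lowest 7CC array (4.69) was barely above the highest 7WT array (4.65). The brightest C2 probe set overlapped in both comparisons, and none of the 17 probe sets was called in either. In 7CC against 7SPF no member was called, where 0.269% of genes were, with differences between -0.22 for C2 and 0.37 for C1qb.

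At 9 weeks the SPF knockouts' mean stood between those of the conventional knockouts and the wild types in all 9 members. C1qc read 7.26, 7.72 and 7.70 in 9SPF arrays against 7.28, 6.67 and 6.61 in 9WT arrays. It was the 1 member called, at 0.70 ± 0.23 (adjusted p = 0.0496), where 7.41% of genes were higher. Without 9SPF replicate 3 the count of genes called in either direction was 283, against 2155 with it. That array's neutrophil list mean was 5.25, against 3.63 and 3.80 in the other 9SPF arrays, and the part of these cells was not tested. The groups overlap in C1qc, and the call was kept under 11 of 34 alternative settings and lost without 9SPF replicate 2 or 3. C1qa (0.57 ± 0.23, adjusted p = 0.112) and C1qb (0.62 ± 0.29, adjusted p = 0.158) did not pass. The dimmest C2 probe set read 5.34, 6.01 and 5.92 in 9SPF arrays and 4.27, 4.27 and 4.48 in 9WT arrays, a difference of 1.41 ± 0.29 (adjusted p = 0.0055 over probe sets). With probe sets averaged, C2 was the 1 member called, at 0.86 (adjusted p = 0.0264).

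Compared directly, 9CC against 9SPF had no member called, nor any gene of the 18193 (0%), while 8 of 9 members and 8.07% of genes had an unadjusted p under 0.05. C1qa read 9.68, 9.72 and 9.36 in 9CC arrays and 8.14, 8.73 and 8.75 in 9SPF arrays, a difference of 1.05 ± 0.23 (adjusted p = 0.169). In 5 members all 9CC arrays lay above all 9SPF arrays, as in 6.85% of genes. These were C1qa, C1qb, C1qc, Cfb and Serping1.

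At 12 weeks the order of the knockouts turned round. In 12CC against 12WT no member passed, where 0.451% of genes did, although 6 of 9 members had all 12CC arrays above all 12WT arrays, as 9.11% of genes had. C1qa read 8.15, 8.50 and 8.51 in 12CC arrays and 7.82, 7.35 and 7.98 in 12WT arrays (0.67 ± 0.23, adjusted p = 0.165). C1qc read 7.25, 7.50 and 7.32 in 12CC arrays and 6.81, 6.31 and 6.68 in 12WT arrays (0.76 ± 0.23, adjusted p = 0.121). On their brightest probe sets C2, Cfb and Cfp overlapped between the groups. On the C2 probe set second in brightness all 12CC arrays lay above all 12WT arrays, without a call, and on the dimmest the groups overlapped.

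**Figure D3:**
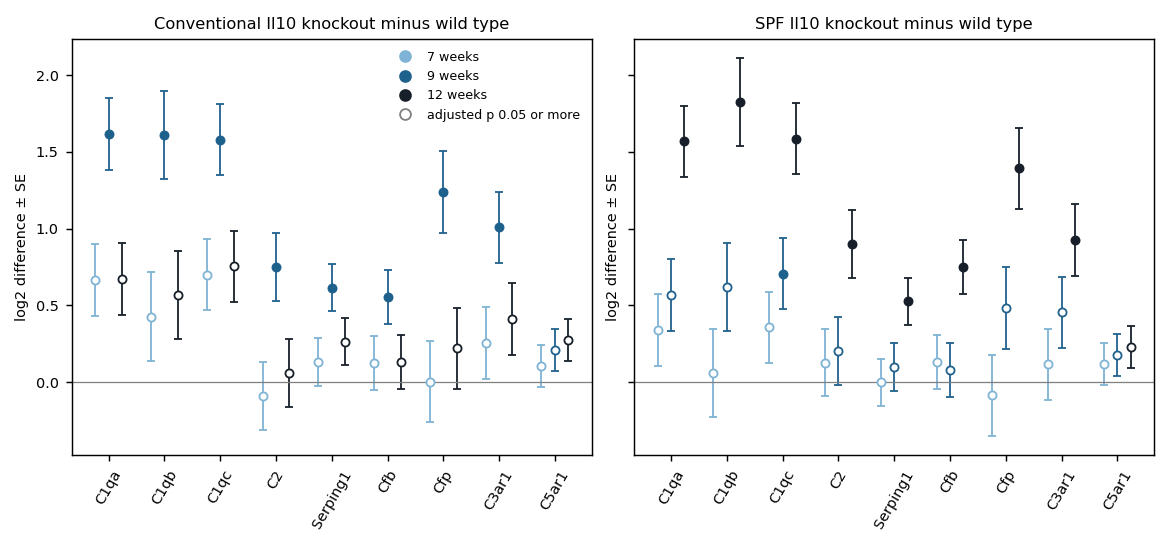
Log2 difference from the wild types of the same age (points) with its SE (bars), by gene and age, for conventional knockouts (left) and SPF knockouts (right), filled where called. The called points are at 9 weeks at left and, apart from C1qc at 9 weeks, at 12 weeks at right.

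Against SPF knockouts of the same age, 12CC was lower in 6 of 9 members, where 13.6% of genes were lower. In 7 of 9 members all 12CC arrays lay below all 12SPF arrays, as in 17.3% of genes. C1qb read 8.10, 8.22 and 7.88 in 12CC arrays and 9.41, 8.63 and 9.92 in 12SPF arrays, and fell by 1.25 ± 0.29 (adjusted p = 0.0045). Cfp read 5.02, 5.32 and 5.25 in 12CC arrays and 6.44, 5.78 and 6.88 in 12SPF arrays, and fell by 1.17 ± 0.27 (adjusted p = 0.00437). C1qa (-0.90 ± 0.23), C1qc (-0.83 ± 0.23), C2 (-0.84 ± 0.22) and Cfb (-0.62 ± 0.18) were called too, with adjusted p between 0.00865 and 0.0143. C3ar1 (-0.51 ± 0.23, adjusted p = 0.113), Serping1 (-0.26 ± 0.15, adjusted p = 0.233) and C5ar1 (0.05 ± 0.14) did not pass. Without 12SPF replicate 3 the count was 2, and with only the 6 arrays of these groups it was 0. Over probe sets 11 of 17 were lower, where 9.14% were, and C5ar1's dimmer probe set differed by -0.86 (adjusted p = 0.00248).

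Followed with age in conventional knockouts, C1qa averaged 8.37 at 7 weeks, 9.59 at 9 weeks and 8.39 at 12 weeks. From 7 to 9 weeks 6 members rose, where 5.34% of genes rose, namely C1qa (1.22 ± 0.23, adjusted p = 0.00346), C1qb (1.28 ± 0.29), C1qc (1.07 ± 0.23), C2 (0.96 ± 0.22), Cfp (1.18 ± 0.27) and C3ar1 (0.85 ± 0.23, adjusted p = 0.024). Cfb (0.38 ± 0.18, adjusted p = 0.167) and Serping1 (0.37 ± 0.15, adjusted p = 0.124) did not pass. Without 7CC replicate 1 the count was 3, and without 9CC replicate 1 the count over all genes was 429 in place of 1899. From 9 to 12 weeks 5 members fell, where 5.40% of genes fell, and these were the C1q chains, C2 and Cfp. C1qa fell by 1.19 ± 0.23 (adjusted p = 0.00628) and Cfp fell by 1.18 ± 0.27 (adjusted p = 0.0128). Cfb missed at -0.55 ± 0.18 (adjusted p = 0.0555), and without 9CC replicate 1 no member was called, and 97 genes in place of 1335.

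In SPF knockouts C1qa averaged 8.04 at 7 weeks, 8.54 at 9 weeks and 9.29 at 12 weeks. No member was called from 7 to 9 weeks, where 0.726% of genes were, and none from 9 to 12 weeks, where no gene was called (0%). In the later step 7 of 9 members had an unadjusted p under 0.05, as had 18.9% of genes, and without 12SPF replicate 2 the members called were 7 and the genes 3593. C1qb differed most, by 1.01 ± 0.29 (adjusted p = 0.101). In wild types no member was called from 7 to 9 weeks, where 0.00550% of genes were, or from 9 to 12 weeks, where 0% were, and the differences lay between -0.11 and 0.27 and between -0.25 and 0.04.

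Differences of change were tested as well. From 9 to 12 weeks the mean of 8 members was lower at the later age in conventional knockouts and higher in SPF knockouts, where none of the steps passed, and C5ar1 differed by 0.03 and 0.02. The change in conventional minus that in SPF knockouts was called lower in 8 of 9 members, where 10.7% of genes were lower. It was -1.94 ± 0.33 for C1qa (adjusted p = 0.0011), -2.24 ± 0.41 for C1qb (adjusted p = 0.0017) and -1.93 ± 0.38 for Cfp (adjusted p = 0.00267). C5ar1 was at 0.01 on its brightest probe set and -1.20 ± 0.22 on the other (adjusted p = 0.00247). With only the arrays of these 4 groups none was called (adjusted p between 0.0593 and 0.0922 for the 8). Against the change in wild types, the change in conventional knockouts was not called for any member from 7 to 9 weeks, where 2.01% of genes were, or from 9 to 12 weeks, where 1.82% were, and 7 and 5 members had an unadjusted p under 0.05, where 18.7% and 21.6% of genes had. The change in SPF knockouts from 9 to 12 weeks was not called either, where 0% of genes were, with 6 members at an unadjusted p under 0.05, where 13.3% of genes were.

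Of the other 39 complement genes listed, 32 were measured. The rest were not analysed here, among them C4a and C4b, which share 1 probe set. In 9CC against 9WT 6 of the 32 rose and 1 fell, where 14.2% of all genes rose and 9.86% fell. In 12SPF against 12WT 7 rose and 3 fell, where 18.2% rose and 16.6% fell. The counts that rose are near these shares, so they say nothing particular about the list. Its medians were -0.07 and 0.04.

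The classical proteases rose in the same comparisons as C1q. C1ra, a C1r gene, read 8.58, 8.70 and 8.11 in 9CC arrays and 7.52, 6.95 and 6.77 in 9WT arrays (1.38 ± 0.27, adjusted p = 0.00112), and was higher by 1.45 ± 0.27 in 12SPF (adjusted p = 0.000365). C1s1, a C1s gene, was higher by 1.07 ± 0.22 and 0.85 ± 0.22 (adjusted p = 0.00161 and 0.00448). Of the 8 other recognition proteins and proteases, Fcnb, a ficolin of myeloid cells in mice, was at 0.32 in 12SPF against 12WT and Colec12, a scavenger collectin, at -0.41 (adjusted p = 0.0346 and 0.0327).

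Terminal components, which build the membrane pore, did not pass in either comparison, with 0 of 5 measured genes (C6, C8a, C8b, C8g and C9) called and differences between -0.31 and 0.29 in 9CC against 9WT. Of all genes, 14.2% rose and 9.86% fell in 9CC, and 18.2% and 16.6% in 12SPF. With 5 genes, the count says nothing particular about them. Their mean levels ran from 2.76 for C8a to 4.47 for C8g, below the array medians, which limits what they can show. Hc, the C5 gene, was lower at -0.53 ± 0.16 in 12SPF against 12WT (adjusted p = 0.012) and at -0.33 in 9CC against 9WT, where it did not pass. The mean level of Hc was 4.10, also below the array medians, with the same limit.

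Of the 11 measured regulators, only C1qbp, C4bp and Cpn1 passed in these comparisons. Of all genes, 14.2% rose and 9.86% fell in 9CC, and 18.2% and 16.6% in 12SPF. The calls are near or below these shares, so they say nothing particular about regulators. C1qbp, whose mainly mitochondrial protein can bind C1q, read 12.43, 12.17 and 12.07 in 9CC arrays and 11.47, 11.37 and 11.26 in 9WT arrays (0.85 ± 0.16, adjusted p = 0.000875), and rose by 0.79 ± 0.16 in 12SPF. C4bp, which restrains the classical convertase, read 4.80, 6.05 and 5.01 in 9CC arrays and 6.55, 6.58 and 6.36 in 9WT arrays (-1.21 ± 0.33, adjusted p = 0.0101). C4bp lies on chromosome 1, as Il10 does, and any bearing of that position on its level was not tested. Cpn1, the catalytic subunit of the carboxypeptidase that inactivates C3a and C5a, read 4.18, 6.47 and 3.97 in 12SPF arrays and 8.16, 6.68 and 6.68 in 12WT arrays, a difference of -2.30 ± 0.49 (adjusted p = 0.00106). C4bp was not called in 12SPF against 12WT, nor was Cpn1 in 9CC against 9WT, so each fall was called in only 1 comparison. The remaining regulators, among them Cd55, Cd46 and Cd59a, did not pass in these 2 comparisons.

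Integrin complement receptors rose in both. Itgb2, the shared beta chain of complement receptors 3 and 4, read 8.55, 8.60 and 7.54 in 9CC arrays and 5.98, 5.85 and 5.32 in 9WT arrays (2.51 ± 0.44, adjusted p = 0.000563). Its partners Itgam and Itgax rose by 1.48 ± 0.31 and 2.04 ± 0.42 in 9CC, and by 1.72 ± 0.31 and 1.55 ± 0.42 in 12SPF. These chains are carried by neutrophils and macrophages alike. Cr2, a receptor of B cells, and Vsig4, a receptor of resident macrophages, did not pass.

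**Figure D4:**
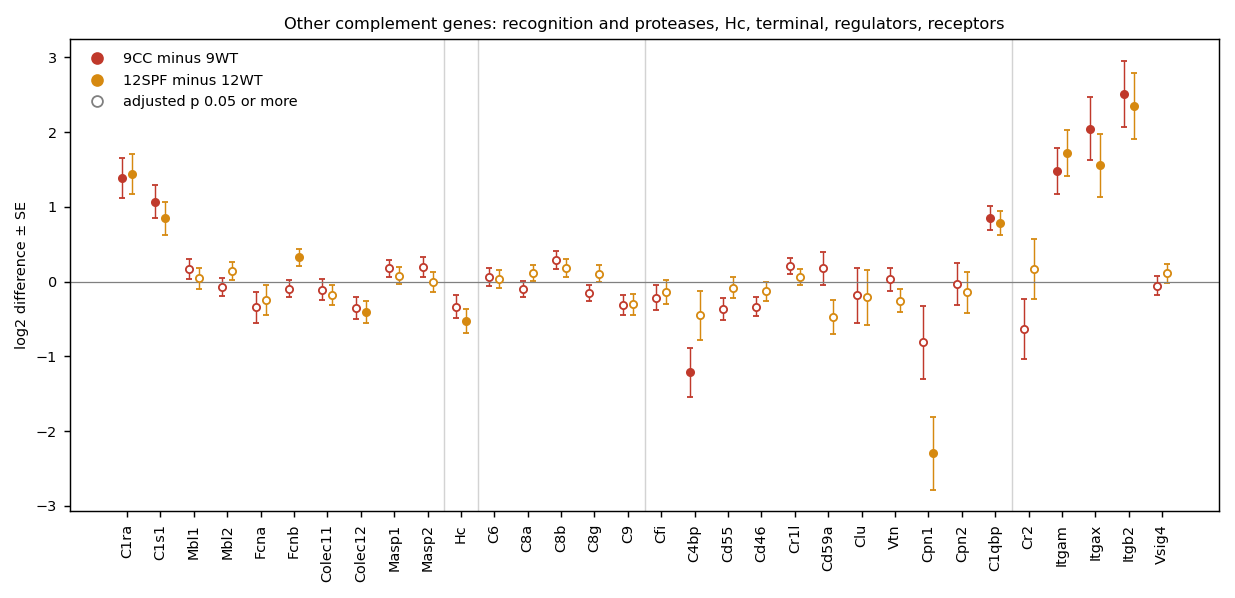
Log2 difference (points) with its SE (bars) for the 32 other measured complement genes, 9CC minus 9WT and 12SPF minus 12WT, filled where called, with grey lines between the recognition proteins and proteases, Hc, terminal components, regulators and receptors. Calls lie at C1ra, C1s1, C1qbp and the 3 integrin genes in both comparisons.

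In 12CC against 12SPF, 6 of the 32 were lower and 4 higher, where 13.6% of all genes were lower and 11.1% higher, so both counts are near the shares of all genes. The lower ones were C1ra (-1.09), C1s1 (-0.69), C1qbp (-0.81), Itgam (-1.57), Itgax (-1.16) and Itgb2 (-2.07), the 6 that were higher in both comparisons with wild types above. The higher ones were Cpn1 (1.98), Hc (0.64), C9 (0.42) and Masp1 (0.40).

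Each member was also set against 18184 other genes for likeness, by Pearson correlation over the 27 arrays. C1qa was nearest to H2-Eb1, an MHC class II gene, and to Pld4 (both 0.958), followed by the macrophage gene Cd68 (0.954). C1qb was nearest to Fcer1g (0.972) and C1qc to Pld4 (0.955). Cfp was nearest to Slamf8 (0.973) and C2 to Dock2 (0.909), a leukocyte gene. C3ar1 was nearest to Cd68 and Csf1r (both 0.889). Cfb was nearest to Gsdmd (0.919). Serping1 was nearest to C1s1 (0.923), with Csf1r second (0.877). C5ar1 had no closer gene than Tagln2 (0.700). These coefficients rest on 9 groups of 3 arrays, with the groups' differences included.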

How the data were processed

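RNA of full-thickness colon was measured on 27 arrays. Per probe set and array, the deposited values are on the log2 scale, normalized by the authors with affyPLM per the series' design text, with its version, background step and summary not given in the sources used here. The probe sets belong to a mouse array, although that text names a rat one. Values lay between 2.10 and 14.25, and precision is limited by the small number of arrays.

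Of 45101 probe sets, 64 controls were left out, as were 932 with several symbols and 9160 with none from the gene tests. A gene's brightest probe set, by its mean level, stood for the gene. limma (3.58.1, R 4.3.3) fitted 9 group means with 18 residual degrees of freedom and 19 comparisons were tested two-sided with eBayes. Spread between samples, on which p-values rest, may be technical. A fit over all 45037 non-control probe sets served the probe-set values. The model was tested on simulated data. The members, lists and tests were chosen with earlier results of these data known. Named genes are all members, other complement genes called between kinds of mice at an age, and nearest genes by correlation. Gene names came from the platform annotation, and neighbours and promoters from RefSeq (GRCm38.p6). The array's build is not given, so no gene coordinates are printed apart from the promoters'. Alternatives were a replicate block, quantile normalization again, median centring, leaving out the dimmest 40% of genes, averaged probe sets per gene, all probe sets, only the arrays compared, and leaving out each array. Replicate numbers were checked for pairing: of 27 same-numbered pairs, 4 deviated together at a correlation over 0.1. The correlations ran from -0.438 to 0.264, and samples were not treated as paired. Differently numbered pairs were not set beside them, so the check cannot exclude pairing. Promoters were searched with Python 3.11.15 and figures drawn with matplotlib 3.10.9.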

Additional observations from a re-analysis of the deposited data

Results flagged for a closer look

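The change from 9 to 12 weeks differed between conventional and SPF knockouts in 8 members, by limma's test of the difference itself, with Benjamini-Hochberg adjustment over all genes, where 10.7% of genes were lower. With only the arrays of these 4 groups none of the 8 was called (adjusted p between 0.0593 and 0.0922). The change in conventional minus that in SPF knockouts was -1.94 for C1qa (adjusted p = 0.0011), -2.24 for C1qb (adjusted p = 0.0017), -1.70 for C1qc (adjusted p = 0.00239) and -1.93 for Cfp (adjusted p = 0.00267). It was -1.39 for C2 (adjusted p = 0.00588), -1.09 for Cfb (adjusted p = 0.00633), -0.78 for Serping1 (adjusted p = 0.0177) and -1.07 for C3ar1 (adjusted p = 0.0284). In each of the 8, the mean fell in conventional knockouts and was higher at 12 than at 9 weeks in SPF knockouts. Of the macrophage markers, 6 of 10 passed the same test, all lower. In the 12SPF group, replicate 2 stayed lowest in these members.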

How the results depend on the processing

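Under a replicate block (replicate number within age), a further quantile normalization, all probe sets or only the arrays compared, 9SPF against 9WT had 0 members called in place of 1, and the block changed no other count. Averaging each gene's probe sets gave C5ar1 as called in 9CC against 9WT (0.43, adjusted p = 0.00731) and in 12SPF against 12WT (0.60, adjusted p = 0.00039), 9 members in place of 8 in both, and C2 (0.86, adjusted p = 0.0264) in place of C1qc (adjusted p = 0.053) in 9SPF against 9WT. It also gave 1 member in place of 0 for the change of conventional knockouts against wild types, from 7 to 9 and from 9 to 12 weeks (C2 in both), and turned C5ar1 to -0.41 (adjusted p = 0.0117) in 12CC against 12SPF and to -0.59 (adjusted p = 0.0134) in the change of conventional minus SPF knockouts. With only the arrays compared, where fewer arrays estimate the spread, the counts were 1 for 7CC against 7WT, 5 for 12SPF against 12WT, 0 for 12CC against 12SPF, 0 for the change of conventional minus SPF knockouts, and 3 and 2 for the changes of conventional knockouts against wild types from 7 to 9 and from 9 to 12 weeks. Leaving out each array in turn gave 6 to 8 members for 9CC against 9WT, 7 to 8 for 12SPF against 12WT, 0 to 3 for 9SPF against 9WT, 0 to 1 for 9CC against 9SPF, 2 to 6 for 12CC against 12SPF, 3 to 6 for 9CC against 7CC, 0 to 6 for 12CC against 9CC, 0 to 7 for 12SPF against 9SPF, 0 to 2 and 0 to 1 for the changes of conventional knockouts against wild types, 0 to 6 for that of SPF knockouts, and 6 to 8 for that of conventional minus SPF knockouts. The other counts stayed at 0. Median centring changed no call, and leaving out the dimmest 40% of genes, C3ar1 and C5ar1 among them, added 1, Cfb in 12CC against 9CC. Over all genes, the count in 9CC against 9WT was 4375 and 2119 without 9CC replicate 1, and that in 12CC against 12SPF was 4480 and 1357 without 12SPF replicate 3. In the same way it was 2155 and 283 for 9SPF against 9WT without 9SPF replicate 3, 1899 and 429 for 9CC against 7CC and 1335 and 97 for 12CC against 9CC without 9CC replicate 1, 3387 and 1562 for the change of conventional minus SPF knockouts without 9SPF replicate 1, and 0 and 3593 for 12SPF against 9SPF without 12SPF replicate 2. For 12CC against 12WT it was 82, with 11 without 12WT replicate 2 and 834 without 12WT replicate 1. The shares of all genes beside the members rest on these counts. Levels of C5ar1 lie near the low end of the arrays, which limits what its probe sets can show. Causes of these shifts were not tested.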
